A study of Homo sapiens with 16 samples.

Results

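RNA recovered with extracellular vesicles (EVs) by an aqueous two-phase system (ATPS) was compared between PC3 and MDA-MB-231. PC3 is a prostate cancer line established from a bone metastasis, and MDA-MB-231 a basal-like breast cancer line with a mesenchymal appearance. The members were the 2 libraries labelled PC3 ATPS and the 2 libraries labelled MDA ATPS, 4 of the 16 small RNA libraries of the series, chosen by their labels in the tables of miRNA, snoRNA and circRNA. Cells of both lines were unmodified (genotype WT) and untreated, were grown in DMEM with FBS, and released EVs into serum-free conditioned medium. The sources differ on the share of FBS used for MDA-MB-231. ATPS separates vesicles into a dextran-rich phase under polyethylene glycol, after which dextran is digested with dextranase and RNA is taken up in TRIzol. The paper proposes that ATPS also takes up cell-free RNA, after adding RNA of PC3 cells to conditioned medium. That experiment used PC3 cells carrying a fluorescent protein, and RNase removed the longer, added RNA. The short RNA of the medium itself was not affected, and the paper reads it as RNA inside EVs. No RNase step is described before sequencing. Whether the RNA counted below lay inside vesicles was not tested. The remaining 12 libraries were 2 per line from ultracentrifuged EVs (labelled VC, read as ultracentrifugation because no other method is left for them), 2 per line from EVs taken with the Qiagen exoRNeasy kit, and 2 per line from the donor cells. Each cancer type is represented by 1 line, so a line stands for itself and not for its tumour type. No source tells whether both libraries of a group were grown and isolated apart, and the p-values below cover only the library-to-library spread, which could be technical.

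EVs are membrane-bound particles that cells shed, and they carry short RNAs from their donor. A mature miRNA guides Argonaute to messenger RNAs through its seed, bases 2 to 8 from its 5′ end. A snoRNA of the C/D box kind guides 2′-O-methylation of ribosomal RNA, while the H/ACA box kind guides pseudouridylation. A few snoRNAs, U3 among them, instead take part in cutting the ribosomal precursor. A circRNA is an exonic loop closed by back-splicing. All values below are labelled TPM, and each is the read number of an entry scaled to a fixed total over its own RNA class, the same total in every library. There is no correction for length, so values are compared between libraries and not between RNAs. A value is a share of the class, so an abundant RNA that differs between the lines also moves the shares of all others. Such shares measure neither the number of vesicles nor the amount of an RNA per vesicle.

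The 2 PC3 ATPS libraries held 5027 and 4612 miRNA reads, and the 2 MDA-MB-231 ATPS libraries 8648 and 4855. For snoRNA there were 43029 and 41519 reads in PC3 against 151267 and 60912 in MDA-MB-231. At this depth 1 read of the shallowest library equalled 217 TPM of miRNA or 24.1 TPM of snoRNA, and these amounts were added to every value before taking logarithms. The second MDA-MB-231 cell library held only 153 miRNA reads and was left out of all comparisons with cells below. Pearson's r of log2 levels across the tested species was 0.891 between the 2 PC3 libraries and 0.896 between the 2 MDA-MB-231 libraries for miRNA, and 0.465 to 0.601 between lines. For snoRNA it was 0.957 and 0.952 within a line and 0.826 to 0.904 between lines. In both classes libraries of a line resembled each other more than they resembled the other line, as a description across species that are not independent. For circRNA the reads summed over entries were 142316297 and 155507977 in PC3 and 399175187 and 374672214 in MDA-MB-231, sums that count a read again for each entry that holds it.

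Fewer miRNA species had a read in PC3 than in MDA-MB-231 ATPS EVs. There were 169 and 185 species in the PC3 libraries against 244 and 216 in the MDA-MB-231 libraries, a difference in means of -53 species. The groups did not overlap, but an exact two-sided permutation test of 2 against 2 libraries gave p = 0.333, the smallest value it allows. With every library thinned to 4612 reads the difference was -26.1 species. For snoRNA, 261 and 255 species had a read in PC3 and 308 and 270 in MDA-MB-231, and thinning to 41519 reads left a difference of -6.93 species. After thinning the lines overlapped, at 260 and 255 against 270 and 259 species (p = 0.667, exact permutation test). Of the snoRNA species seen in at least 1 library of a line, 270 were shared, 95.7% of the 282 in PC3 and 84.9% of the 318 in MDA-MB-231. Of the miRNA species, 173 were shared, 70.3% of the 246 in PC3 and 56.9% of the 304 in MDA-MB-231.

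Several of the miRNAs described below share a seed. The sequences are shown because the families are defined by them, and they are RefSeq mature sequences read 5′ to 3′, with the seed in capitals. The first 3 were higher in PC3 ATPS EVs:
miR-182-5p: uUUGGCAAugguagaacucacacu
miR-361-3p: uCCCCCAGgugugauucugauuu
miR-27a-5p: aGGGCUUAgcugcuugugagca
The next lines give 3 of the miR-30 entries with the seed GUAAACA, of which miR-30a-5p was lower in PC3 and the other two did not pass the test:
miR-30a-5p: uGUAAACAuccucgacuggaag
miR-30c-5p: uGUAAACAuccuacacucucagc
miR-30e-5p: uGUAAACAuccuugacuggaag
The remaining lines give miRNAs of which all but miR-222-3p were lower in PC3, with miR-181a-5p and miR-181b-5p sharing the seed ACAUUCA and miR-221-3p and miR-222-3p the seed GCUACAU:
miR-21-5p: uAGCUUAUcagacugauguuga
miR-7-5p: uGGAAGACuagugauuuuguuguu
miR-181a-5p: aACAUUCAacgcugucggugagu
miR-181b-5p: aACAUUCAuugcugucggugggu
miR-221-3p: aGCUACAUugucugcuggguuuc
miR-222-3p: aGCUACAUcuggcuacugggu

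Of 92 miRNA entries tested, 12 were higher in PC3 ATPS EVs, 13% of those tested, and 29 were lower, 31.5%, by limma with Benjamini-Hochberg adjustment at 0.05. The median log2 difference over the 92 entries was -0.36, so the typical miRNA share was lower in PC3 than in MDA-MB-231. With shares recomputed without the most abundant entry of each line the median was 0.02, with 13 entries higher and 19 lower. With log2 levels centred on the median entry the counts were 17 higher and 21 lower. Of the 41 entries called, 18 passed with each of the 12 EV libraries left out in turn, 5 of them higher in PC3. Leaving out an ATPS library leaves its line with 1 library, which is then assumed to vary like the other groups.

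**Figure D1:**
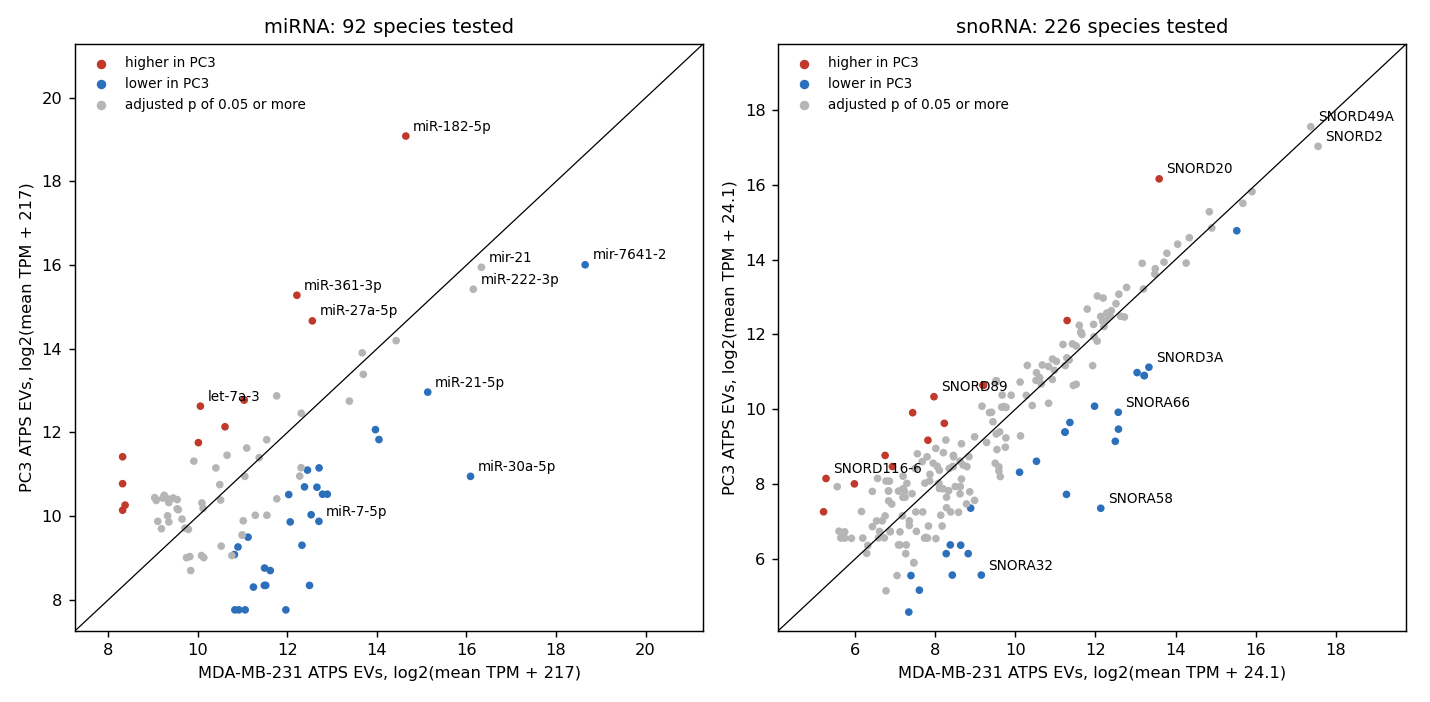
Mean level in PC3 ATPS EVs (vertical axis) against MDA-MB-231 ATPS EVs (horizontal axis), both as log2(mean TPM + pseudocount), for the 92 miRNA and 226 snoRNA entries tested, 1 point an entry, coloured by whether it was higher in PC3, lower in PC3 or not called. The miRNA points include miR-182-5p far above the diagonal and miR-30a-5p far below it.

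miR-182-5p, a member of the miR-183, miR-96 and miR-182 cluster that is known to repress FOXO transcription factors, made up 54.9% and 56.2% of the miRNA reads in the 2 PC3 ATPS libraries. In the MDA-MB-231 ATPS libraries it made up 1.56% and 3.52%. Both PC3 libraries lay far above both MDA-MB-231 libraries, with a log2 difference of 4.55 ± 0.287 (SE, 2 libraries a line, adjusted p = 8.33e-11 by limma). Its gene MIR182 lies at chr7:129770383-129770492 on the minus strand of hg38, in an intron of an unnamed long RNA gene (ENSG00000286380). The difference came with other entries of the cluster. All 4 cluster entries tested were higher in PC3, beside 13% of all 92 miRNA entries, with a median log2 difference of 2.42 beside -0.36 for all miRNA. No miR-96 entry was tested, as miR-96-5p had 0 and 1 reads in PC3 and 1 and 0 in MDA-MB-231. Its hairpin entry, mir-96, had no read in any ATPS library. The hairpin entry mir-183 had 9 and 15 reads in PC3 against 0 and 1 in MDA-MB-231, a log2 difference of 3.12 (adjusted p = 0.00102, limma). The hairpin entry mir-182 stood at 2586 and 3903 TPM in PC3 against 809 and 824 TPM in MDA-MB-231. Its log2 difference was 1.72 (adjusted p = 0.00946, limma), and the call was lost without the second PC3 library (adjusted p = 0.0742). miR-183-5p had 30 and 12 reads against 9 and 8, and its log2 difference of 1.45 (adjusted p = 0.0449, limma) was no longer called without the first PC3 or the first MDA-MB-231 ATPS library (adjusted p up to 0.332). Without the first PC3 library it was 0.88.

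miR-361-3p, whose gene MIR361 lies in an intron of CHM at chrX:85903636-85903707 (hg38), made up 3.90% and 4.01% of the miRNA reads in PC3 and 0.185% and 0.721% in MDA-MB-231. The lines did not overlap, and the log2 difference was 3.34 ± 0.638 (SE, adjusted p = 0.000511 by limma). miR-27a-5p, the less studied arm of the mir-27a hairpin in an exon of MIR23AHG (chr19:13836440-13836517, hg38), made up 2.67% and 2.49% in PC3 and 0.463% and 0.700% in MDA-MB-231. Its log2 difference was 2.14 ± 0.381 (SE, adjusted p = 6.96e-05 by limma). The other arm, miR-27a-3p, rested at 33 and 37 reads in PC3 and 10 and 26 in MDA-MB-231 and did not pass the test (log2 difference 1.43, adjusted p = 0.0561, limma). The hairpin entry let-7a-3, a copy of the let-7 tumour suppressor family, had 31 and 28 reads in PC3 against 4 and 6 in MDA-MB-231. It was the only one of 10 let-7 and miR-98 entries tested that passed (log2 difference 2.67, adjusted p = 0.000649, limma), and the family's median was 0.02. miR-3614-5p had 10 and 5 reads against 0 and 1, and its call (log2 difference 2.48) was lost without the first library of either line. With the first PC3 library left out its log2 difference was 2.10 (adjusted p = 0.0949, limma). Also called higher were miR-342-3p, with 8 and 2 reads against 2 and 0, and miR-4448, with 7 and 2 against 0 and 1. Both calls (adjusted p = 0.0487 and 0.0314, limma) were lost without the first library of either line, among others.

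**Figure D2:**
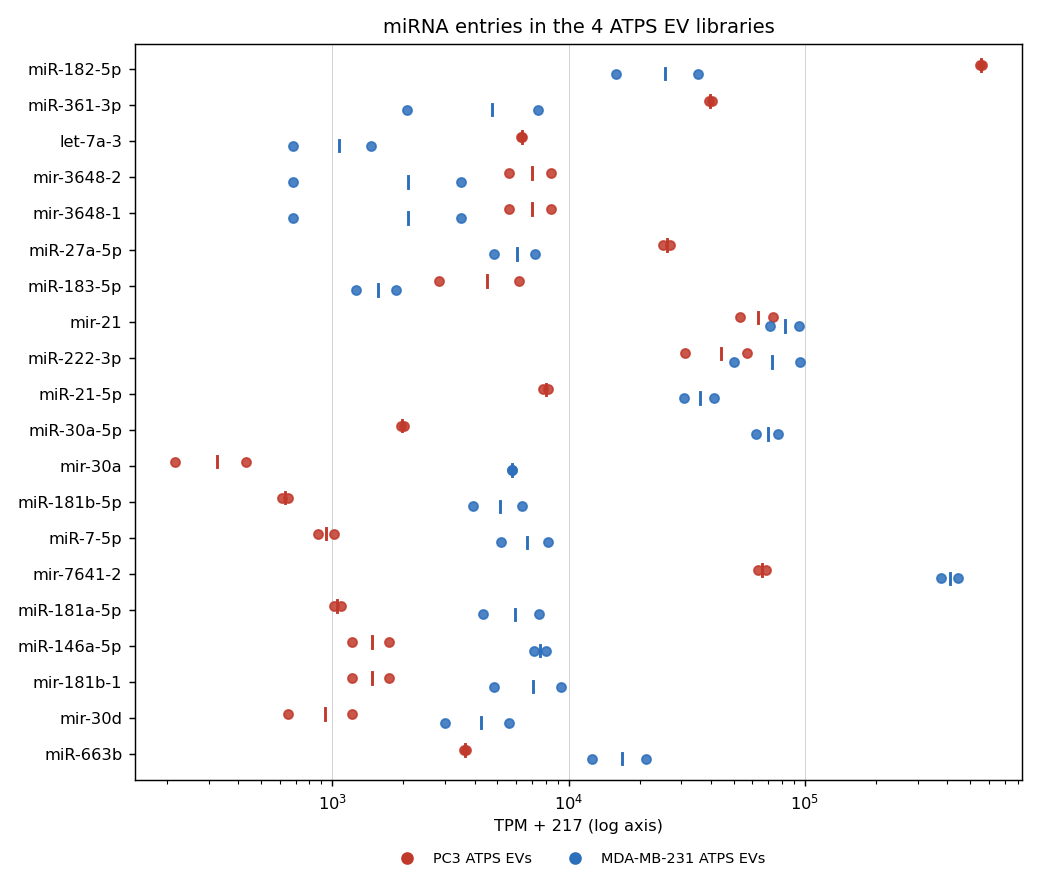
TPM + 217 on a log axis (horizontal) of named miRNA entries (vertical) in each ATPS library, 1 point a library and a tick at the mean of a line, PC3 in red and MDA-MB-231 in blue. The 2 libraries of a line lie nearer each other than the other line for miR-182-5p, miR-30a-5p and miR-21-5p, while the lines overlap for mir-21 and miR-222-3p.

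The opposite pattern was led by miR-30a-5p, which is known to repress the autophagy gene BECN1 and the epithelial-mesenchymal regulator SNAI1. It had 9 and 8 reads in PC3 against 667 and 301 in MDA-MB-231, or 0.179% and 0.173% against 7.71% and 6.20% of the miRNA reads. Its log2 difference was -5.13 ± 0.384 (SE, adjusted p = 3.59e-11 by limma), the largest in size among the 92 entries. The gene MIR30A lies in an intron of LINC00472 at chr6:71403551-71403621 (minus strand, hg38). Its hairpin entry, mir-30a, had 0 and 1 reads in PC3 and 48 and 27 in MDA-MB-231 (log2 difference -4.23, adjusted p = 3.17e-06, limma). Among all 92 miRNA entries 53 had a negative difference and 31.5% were called lower. All 7 miR-30 entries tested had a negative difference, but 3 passed. The third was the hairpin entry mir-30d, with 5 and 2 reads against 24 and 26, whose call (adjusted p = 0.0482, limma) was lost without any of the 4 ATPS libraries (adjusted p up to 0.353). miR-30e-5p, with the same seed, stood at 2188 and 1951 TPM in PC3 and 3932 and 5767 TPM in MDA-MB-231 (log2 difference -1.13, adjusted p = 0.155, limma). miR-30c-5p had 5 and 3 reads against 14 and 19 (log2 difference -1.43, adjusted p = 0.107, limma). For neither did the lines overlap, and neither difference passed. miR-30d-5p had 61 and 41 reads in PC3 and 94 and 74 in MDA-MB-231, with TPM values that overlapped between lines (log2 difference -0.30, adjusted p = 0.553, limma). Summed, the miR-30 entries took 1.85% and 1.45% of the miRNA reads in PC3 and 10.3% and 9.99% in MDA-MB-231. Most of the sum in MDA-MB-231 was miR-30a-5p, at 7.71% and 6.20%.

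miR-21-5p, a widely expressed miRNA that is raised in many tumours and represses PDCD4, made up 0.796% and 0.759% of the miRNA reads in PC3 and 4.11% and 3.05% in MDA-MB-231. The log2 difference was -2.16 ± 0.321 (SE, adjusted p = 7.39e-06 by limma), with no overlap between lines. The hairpin entry mir-21, from the same gene in an exon of VMP1 (chr17:59841266-59841337, hg38), made up 5.29% and 7.31% in PC3 and 9.40% and 7.09% in MDA-MB-231. These values overlapped, and the log2 difference of -0.39 did not pass (adjusted p = 0.191, limma). The sources used here do not say how reads were divided between a mature name and its hairpin name. Mature names held 80.3% and 77.6% of the miRNA reads in PC3 and 36.2% and 43.7% in MDA-MB-231.

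The largest share under a hairpin name was that of mir-7641-2 in MDA-MB-231. This entry, whose sequence resembles ribosomal RNA, made up 6.84% and 6.29% of the miRNA reads in PC3 against 44.5% and 37.7% in MDA-MB-231. Its log2 difference was -2.64 ± 0.215 (SE, adjusted p = 8.33e-11 by limma). Among all 92 miRNA entries 13% were called higher and 31.5% lower, with a median of -0.36. Of 8 tested entries listed as resembling or lying in ribosomal RNA, 2 were higher and 3 lower in PC3, with a median of -1.58. The 2 higher ones were the copies mir-3648-1 and mir-3648-2, which had identical values and may share reads. They had 27 and 38 reads in PC3 and 4 and 16 in MDA-MB-231, and their call was lost without either PC3 ATPS library or the first MDA-MB-231 library (adjusted p up to 0.227). Without the first MDA-MB-231 library the log2 difference was 0.97. The 3 lower ones were mir-7641-2, miR-663b and its hairpin entry mir-663b, the last not called without the second PC3 library. miR-663b stood at 17 and 16 reads in PC3 and 107 and 102 in MDA-MB-231, a log2 difference of -2.17 (adjusted p = 0.000344, limma). The part of ribosomal RNA fragments in the line difference was not tested.

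Several miR-181 entries, whose family is known from lymphocyte development, were lower in PC3. miR-181a-5p stood at 796 and 867 TPM in PC3 against 7285 and 4120 TPM in MDA-MB-231 (log2 difference -2.44, adjusted p = 0.000718, limma). miR-181b-5p, with the same seed, had 2 reads in each PC3 library against 53 and 18 reads in MDA-MB-231 (log2 difference -2.98, adjusted p = 3.18e-05, limma). miR-181d-5p, which also has this seed, went against them with 7 and 4 reads in PC3 and 2 and 4 in MDA-MB-231, and its log2 difference of 0.95 did not pass (adjusted p = 0.316, limma). The hairpin entry mir-181b-1, whose gene lies in an intron of MIR181A1HG at chr1:198858873-198858982 (hg38), had 5 and 7 reads against 40 and 44 (log2 difference -2.21). miR-181a-5p, miR-181b-5p and mir-181b-1 kept their call with each EV library left out in turn. The hairpin entries mir-181a-1 and mir-181a-2 had no read in PC3. Set against a floor of 3 reads over both PC3 libraries, they were at least 5.95-fold and at least 5.47-fold higher in MDA-MB-231. Both were named after their values were seen.

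The miR-221 and miR-222 hairpins lie together in an intron of MIR222HG on chromosome X, MIR221 at chrX:45746157-45746266 and MIR222 at chrX:45747015-45747124 (hg38), and their products are known to repress the cell cycle inhibitor CDKN1B. Of 5 tested entries of the pair 4 were lower in PC3, with a median log2 difference of -1.66. Among all 92 miRNA entries 31.5% were called lower, with a median of -0.36. The hairpin entry mir-222 stood at 5769 and 2385 TPM in PC3 against 13067 and 18538 TPM in MDA-MB-231 (log2 difference -2.0, adjusted p = 0.000683, limma). miR-221-3p had 9 and 5 reads against 37 and 40 (log2 difference -1.93, adjusted p = 0.00466, limma), a call lost without the second library of either line (adjusted p up to 0.0742). The call of the hairpin entry mir-221 (log2 difference -1.66) was lost without the second PC3 or the first MDA-MB-231 ATPS library, with adjusted p up to 0.0739. That of miR-221-5p (-1.52) was lost without any of the 4 ATPS libraries, with adjusted p up to 0.114. miR-222-3p, with the seed of miR-221-3p, made up 5.67% and 3.08% of the miRNA reads in PC3 and 5.01% and 9.52% in MDA-MB-231. Its values overlapped between lines and its log2 difference of -0.72 did not pass (adjusted p = 0.111, limma). Without the first MDA-MB-231 library it was -1.18 (adjusted p = 0.021, limma).

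miR-7-5p, known to repress EGFR, had 4 and 3 reads in PC3 against 69 and 24 in MDA-MB-231 (log2 difference -2.79, adjusted p = 6.26e-05, limma). miR-146a is induced by NF-kB and represses its adaptors IRAK1 and TRAF6. miR-146a-5p had 5 and 7 reads in PC3 and 60 and 38 in MDA-MB-231, a log2 difference of -2.39 whose call (adjusted p = 0.0424, limma) was lost without any of the 4 ATPS libraries (adjusted p up to 0.242). Its hairpin entry, mir-146a, had 0 and 1 reads against 22 and 14 (log2 difference -3.25, adjusted p = 0.00627, limma), and its call was lost without the first PC3 library (adjusted p = 0.0893). Of 7 tested entries of the miR-23, miR-27 and miR-24 clusters, miR-27a-5p was higher and 3 were lower in PC3, beside 13% and 31.5% of all 92 entries. The 3 lower ones were miR-23a-3p, miR-23b-3p and miR-27b-3p. miR-23a-3p had 12 and 8 reads against 55 and 32, and miR-23b-3p had 2 and 0 against 15 and 20. Each of these 3 calls was lost without 2 or more single ATPS libraries, and the log2 difference of miR-27b-3p moved from -2.03 to -3.14 without the first PC3 library or to -0.91 without the second. miR-26a-5p, which represses EZH2, and miR-224-5p were also lower. They had 0 and 2 reads and 0 and 1 reads in PC3 against 30 and 9 and 12 and 19 in MDA-MB-231. miR-26a-5p lost its call without the first library of either line (adjusted p up to 0.146), and miR-224-5p without the first PC3 or the second MDA-MB-231 library (adjusted p up to 0.086). miR-4488 and miR-138-5p, chosen after their values were seen, had no read in PC3. They were at least 12.6-fold and at least 7.14-fold higher in MDA-MB-231 against the floor of 3 reads. The call of miR-138-5p was lost without the first MDA-MB-231 library (adjusted p = 0.0673, limma).

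Several families did not separate the lines by the test. None of 3 tested entries of the miR-125, miR-99 and miR-100 families passed, and miR-100-5p stood at 8355 and 4987 TPM in PC3 and 10870 and 10093 TPM in MDA-MB-231. miR-210-3p, a marker of hypoxia, had 18 and 15 reads in PC3 and 21 and 15 in MDA-MB-231 (log2 difference 0.30, adjusted p = 0.822, limma). None of 5 tested entries that overlap a snoRNA passed, and their list took 2.39% and 2.08% of miRNA reads in PC3 and 2.83% and 2.47% in MDA-MB-231. The miR-15 and miR-16 family had no read in PC3 among its 15 entries, against 6 and 4 reads in MDA-MB-231, and was not tested. Of the miR-17 to miR-92 clusters only miR-92a-3p was tested. It had 4 and 1 reads against 17 and 10, and its call (log2 difference -1.75) was lost without the second PC3 library, when it was -1.14, or either MDA-MB-231 library. The labels call both lines epithelial, yet of 5 entries of the epithelial miR-200 family 4 had no read in any ATPS library, and miR-200b-3p had 1 read in the second PC3 library. The blood and endothelial marker miR-486-5p had 0 to 2 reads a library, and the neuronal marker miR-9-5p 0 to 2.

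Examples of snoRNAs that differed between the lines are shown next as GENCODE transcripts, 5′ to 3′ on the gene's strand. Capitals mark the C box (TGATGA) and the D box (CTGA) of the C/D snoRNAs, and the ACA box of the H/ACA snoRNAs, each found by its letters alone. The first 3 were higher in PC3 ATPS EVs and the last 2 were lower, SNORA58 having the largest difference:
SNORD20: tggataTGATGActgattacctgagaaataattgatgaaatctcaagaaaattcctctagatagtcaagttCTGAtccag
SNORD116-3: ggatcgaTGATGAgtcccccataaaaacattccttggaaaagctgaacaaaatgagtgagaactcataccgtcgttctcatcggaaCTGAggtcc
SNORD116-6: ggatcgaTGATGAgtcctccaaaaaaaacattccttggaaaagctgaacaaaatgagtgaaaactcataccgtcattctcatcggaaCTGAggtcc
SNORA66: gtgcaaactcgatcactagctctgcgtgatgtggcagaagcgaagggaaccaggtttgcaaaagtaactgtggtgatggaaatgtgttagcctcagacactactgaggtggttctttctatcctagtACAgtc
SNORA58: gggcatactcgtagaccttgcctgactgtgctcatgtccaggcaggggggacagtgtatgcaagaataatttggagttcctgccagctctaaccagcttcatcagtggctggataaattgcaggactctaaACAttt

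Of 226 snoRNA entries tested, 15 were higher in PC3 ATPS EVs, 6.64% of those tested, and 26 were lower, 11.5%. The median log2 difference over the 226 was 0.13. The kinds of snoRNA differed in direction. Of 154 C/D box entries tested 12 were higher and 8 lower, with a median of 0.34, while of 62 H/ACA box entries 2 were higher and 16 lower, with a median of -1.13. The higher C/D calls include 7 entries of the SNORD116 array, and the lower ones 6 copies of U3, both described below. Entries of each of these families may share reads, so the C/D counts are no measure of independent support. In all, 52 of the 62 H/ACA entries had a negative difference, beside 100 of all 226 entries. H/ACA entries took 2.48% and 2.12% of snoRNA reads in PC3 and 5.55% and 3.46% in MDA-MB-231. Reads of 18 to 35 bases were kept by the authors, so only fragments of these RNAs were counted. Of the 41 calls, 16 held with each EV library left out in turn, 4 of them higher in PC3.

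SNORD20, a C/D snoRNA in an intron of NCL, the gene of nucleolin (chr2:231456444-231456523, minus strand, hg38), made up 7.64% and 6.95% of snoRNA reads in PC3 and 1.19% and 1.27% in MDA-MB-231. The log2 difference was 2.56 ± 0.253 (SE, adjusted p = 4.75e-07 by limma), and both libraries of each line lay close together. SNORD89, in an intron of RNF149 (chr2:101272936-101273049), stood at 1627 and 915 TPM in PC3 against 291 and 164 TPM in MDA-MB-231 (log2 difference 2.35, adjusted p = 0.000547, limma). SNORD67, in an intron of CKAP5 (chr11:46762389-46762499) and known to act on U6 spliceosomal RNA, stood at 1325 and 554 TPM against 152 and 148 TPM. Its log2 difference of 2.34 (adjusted p = 0.0025, limma) was not called without the first PC3 library (adjusted p = 0.064). snoU2_19 had 20 and 15 reads in PC3 against 13 and 5 in the deeper MDA-MB-231 libraries (log2 difference 2.01, adjusted p = 0.00237, limma).

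**Figure D3:**
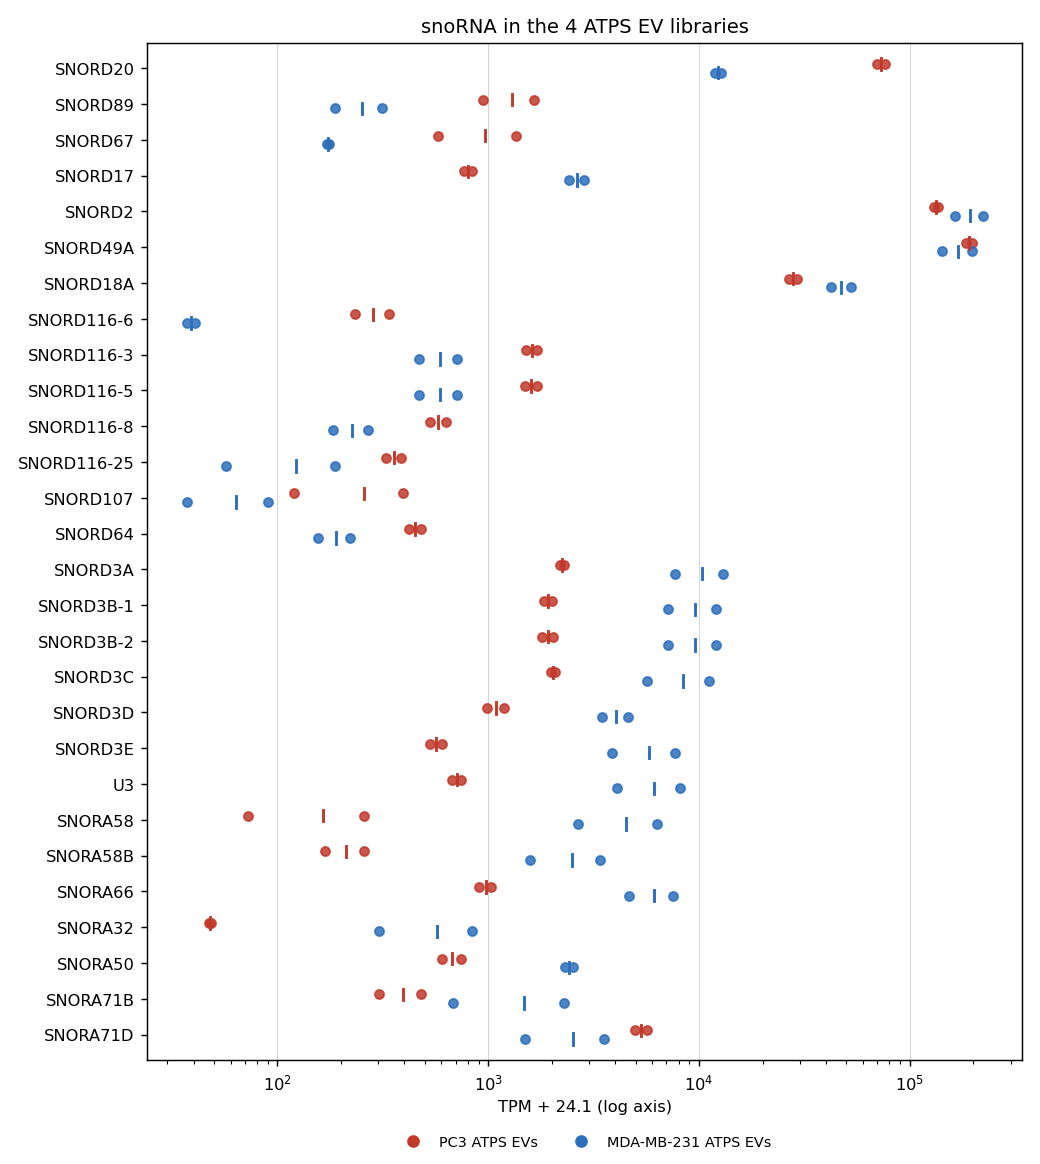
TPM + 24.1 on a log axis (horizontal) of named snoRNA entries (vertical) in each ATPS library, 1 point a library and a tick at the mean of a line, PC3 in red and MDA-MB-231 in blue. SNORD20 and SNORD116-6 lie higher in both PC3 libraries, and SNORA58, SNORA66 and the U3 copies lie higher in both MDA-MB-231 libraries.

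The SNORD116 array holds imprinted C/D snoRNAs of the Prader-Willi region, processed from introns of SNHG14, with no known ribosomal RNA target. The neighbouring SNORD115 array had no read in any ATPS library among its 26 entries and was not tested. All 20 tested SNORD116 entries had a positive log2 difference, from 0.44 to 2.85 with a median of 1.31, and 7 passed. Of all 226 snoRNA entries 126 had a positive difference and 6.64% were called higher, with a median of 0.13. The array took 1.74% and 1.94% of snoRNA reads in PC3 and 0.501% and 0.931% in MDA-MB-231. Several entries had identical values and may be counted from the same reads. SNORD116-6 (chr15:25065026-25065121, hg38) had 9 and 13 reads in PC3 against 2 and 1 in MDA-MB-231, a log2 difference of 2.85 (adjusted p = 0.000547, limma) that passed with each EV library left out. SNORD116-3 (chr15:25056860-25056954) and SNORD116-9 had identical values, 1487 and 1686 TPM in PC3 against 443 and 690 TPM in MDA-MB-231. Their log2 difference was 1.48 (adjusted p = 0.0342, limma). This call, like those of SNORD116-5, SNORD116-7, SNORD116-8 and SNORD116-25, was lost without either PC3 ATPS library, the first MDA-MB-231 ATPS library or either PC3 ultracentrifuged library, with adjusted p up to 0.303 for SNORD116-3 and up to 0.523 for SNORD116-25. Without the first MDA-MB-231 ATPS library the log2 difference of SNORD116-25 fell from 1.77 to 0.91. SNORD107, from the same region, had 16 and 4 reads against 2 and 4 (log2 difference 1.92, adjusted p = 0.037, limma), and its call was lost without the first ATPS library of either line among others, with a log2 difference of 1.06 without that of PC3. The other 3 tested snoRNAs of that region outside the array did not pass, with SNORD64 at 395 and 458 TPM in PC3 and 132 and 197 TPM in MDA-MB-231.

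The U3 copies, which act in the first cuts of the ribosomal precursor, were low in PC3. Of all 226 snoRNA entries 11.5% were called lower, with a median log2 difference of 0.13. All 6 tested copies, SNORD3A to SNORD3E with SNORD3B in 2 copies, were lower, with a median log2 difference of -2.21. Together they took 0.983% and 0.947% of snoRNA reads in PC3 and 6.05% and 3.47% in MDA-MB-231. SNORD3A (chr17:19188016-19188714, hg38) stood at 2161 and 2264 TPM in PC3 against 12997 and 7634 TPM in MDA-MB-231, a log2 difference of -2.16 ± 0.416 (SE, adjusted p = 0.000731 by limma). SNORD3E stood at 581 and 506 TPM against 7675 and 3842 TPM (log2 difference -3.27, adjusted p = 0.000148, limma). The entry named U3 had 28 and 30 reads in PC3 and 1227 and 247 in MDA-MB-231 (log2 difference -3.02, adjusted p = 0.000296, limma). The copies are near-identical and may share reads, so their count is no measure of independent support. SNORD3C lost its call without the first MDA-MB-231 library (log2 difference -1.48, adjusted p = 0.074). Other snoRNAs that act in processing moved less evenly. Among SNORD118, SNORD13 and the SNORA73 pair, the genes of U8, U13 and U17, only SNORA73B was lower (log2 difference -1.56, adjusted p = 0.0478, limma), a call lost without the second PC3 or the first MDA-MB-231 ATPS library among others (log2 difference -0.92 and -1.02). A further entry named U8, which stands for several related loci, had 0 reads in both PC3 libraries and 37 and 2 in MDA-MB-231, so it was at least 5.18-fold higher in MDA-MB-231 against the floor of 3 reads over both PC3 libraries. Its call (adjusted p = 0.0189, limma) was lost without either PC3 ATPS library or the first MDA-MB-231 ATPS library (adjusted p up to 0.483). None of the 5 tested U14 entries passed.

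SNORA58, in an intron of MRPL3 (chr3:131479097-131479233, hg38), had the largest difference in size among snoRNAs. It stood at 232 and 48.2 TPM in PC3, 10 and 2 reads, against 6307 and 2643 TPM in MDA-MB-231, with a log2 difference of -4.92 ± 0.564 (SE, adjusted p = 3.0e-06 by limma). Its relative SNORA58B, in an intron of UBAP2L (chr1:154259727-154259862), stood at 232 and 144 TPM against 3365 and 1560 TPM (log2 difference -3.48, adjusted p = 4.36e-05, limma). SNORA66, in an intron of RPL5 (chr1:92840719-92840851), stood at 883 and 1012 TPM in PC3 against 7477 and 4646 TPM in MDA-MB-231. Its log2 difference was -2.61 ± 0.353 (SE, adjusted p = 2.57e-05 by limma), and the lines did not overlap. SNORA32 and SNORA74A had 1 read in each PC3 library. They had 123 and 17 and 45 and 21 reads in MDA-MB-231, with log2 differences of -3.40 and -2.85. These 5 H/ACA snoRNAs kept their call with each EV library left out in turn. SNORA10, SNORA57 and SNORA50 were also lower, but SNORA10 lost its call without the second PC3 or the first MDA-MB-231 ATPS library, SNORA57 without the first library of either line and SNORA50 without the second PC3 library. The H/ACA entries that were higher in PC3 were SNORA2A, with 6 and 5 reads against 4 and 0, and SNORA71D at 4950 and 5612 TPM against 3504 and 1478 TPM. Both calls were lost without the first PC3 or the second MDA-MB-231 ATPS library, and that of SNORA71D also without the second PC3 library, SNORA2A with adjusted p up to 0.119 and SNORA71D up to 0.324. Without the second MDA-MB-231 library the difference of SNORA71D was 0.59.

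Some snoRNAs with large shares did not pass the test. SNORD49A, in an intron of SNHG29 (chr17:16440036-16440106, hg38), made up 18.5% and 19.8% of snoRNA reads in PC3 and 14.2% and 19.8% in MDA-MB-231 (log2 difference 0.19, adjusted p = 0.654, limma). SNORD18A, by contrast, was lower in PC3 at 2.91% and 2.68% against 5.23% and 4.21% (log2 difference -0.75, adjusted p = 0.0342, limma). Its call was lost without either PC3 ATPS library or the first MDA-MB-231 ATPS library, among others (adjusted p up to 0.34). SNORD2, in an intron of EIF4A2 (chr3:186784796-186784864), made up 13.02% and 13.6% in PC3 and 22.1% and 16.4% in MDA-MB-231 (log2 difference -0.52, adjusted p = 0.153, limma). None of the 6 tested snoRNAs of SNHG1, the 4 of RPL13A or the 3 of SNHG29 passed. A p that misses the threshold does not show that these were equal.

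The circRNA table was dominated by 8 entries with almost the same reads, hsa_circ_0040314, hsa_circ_0040317, hsa_circ_0040320, hsa_circ_0040322, hsa_circ_0040325, hsa_circ_0040326, hsa_circ_0040327 and hsa_circ_0040328. Together they took 94.3% and 94.6% of circRNA TPM in PC3 ATPS EVs, 90.7% and 90.4% in MDA-MB-231 ATPS EVs, and in cells 1.64% and 1.57% in PC3 and 2.77% in the first MDA-MB-231 library. The first of them stood at 117937 and 118298 TPM in PC3 and 113399 and 112952 TPM in MDA-MB-231, a log2 difference of 0.06. The call of this small difference (adjusted p = 0.00969, limma) was lost without any single ATPS library, with adjusted p up to 0.0878. The sources used here do not say that a counted read had to cross a back-splice junction, so a read of 18 to 35 bases on an entry may come from linear RNA of the same locus. No table used here pairs these identifiers with genes.

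Of 463 circRNA entries tested, 74 were higher in PC3, 16% of those tested, and 92 were lower, 19.9%. Entries with near-identical values, within 1% in every ATPS library, formed 154 groups, of which 64 held a single entry and the largest held 20. Called entries lay in 21 groups that were higher and 24 that were lower. The entries hsa_circ_0060056, hsa_circ_0060057, hsa_circ_0060058 and hsa_circ_0060060 had the largest positive difference, the first of them at 33.1 and 23.7 TPM in PC3 against 0.699 and 1.42 TPM in MDA-MB-231 (log2 difference 3.84 ± 0.278, SE, adjusted p = 3.25e-06 by limma). hsa_circ_0113917 and its group stood at 55.03 and 52.6 TPM in PC3 and 4.62 and 6.45 TPM in MDA-MB-231 (log2 difference 3.08, adjusted p = 0.00152, limma). In the other direction, hsa_circ_0017173 and its group stood at 5.02 and 3.28 TPM in PC3 and 49.4 and 28.8 TPM in MDA-MB-231 (log2 difference -2.93, adjusted p = 0.00284, limma). Among more abundant groups, chosen after their values were seen, hsa_circ_0073681 stood at 2278 and 2061 TPM against 7051 and 9660 TPM, a log2 difference of -1.93 (adjusted p = 0.00134, limma). With TPM recomputed without the 8 dominant entries 193 entries were higher and 34 lower, and the difference of hsa_circ_0073681 was then -1.15. The 7 entries for well-known circRNAs had 1 and 1 reads in all in PC3 and 8 and 3 in MDA-MB-231, and none was tested.

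**Figure D4:**
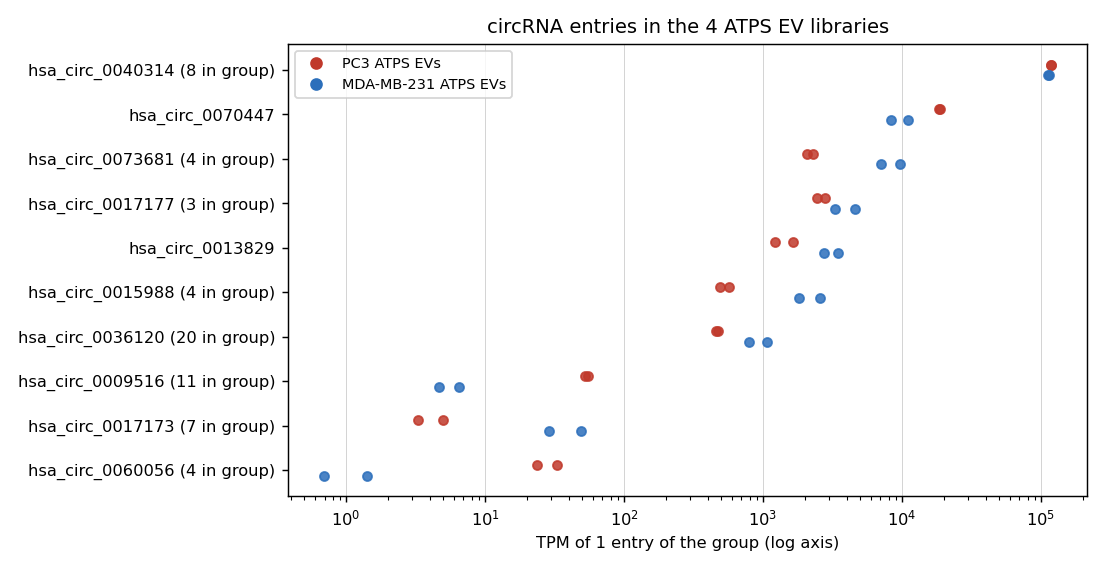
TPM of 1 entry on a log axis (horizontal) for named groups of near-identical circRNA entries (vertical) in each ATPS library, 1 point a library, PC3 in red and MDA-MB-231 in blue. The group of hsa_circ_0040314 sits near the same height in all 4 libraries, that of hsa_circ_0060056 is higher in PC3 and that of hsa_circ_0017173 is higher in MDA-MB-231.

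The same contrast of lines was available in EVs isolated otherwise. Of the 41 miRNA entries called in ATPS EVs, 41 had the same direction in ultracentrifuged EVs and 30 were also called there, and 40 had it in exoRNeasy EVs with 25 called. Line differences were called for 37% of all miRNA entries with each of these methods, and 77 and 70 of all 92 entries had the same direction as in ATPS EVs. Of the 41 snoRNA calls, 40 and 39 had the same direction and 31 and 21 were called, while 37.2% and 14.2% of all 226 entries were called with the 2 methods. Among all 226 snoRNA entries 200 and 183 had the same direction as in ATPS EVs. For circRNA 166 and 154 of the 166 calls had the same direction, and 147 and 144 were called. Over all 463 circRNA entries 343 and 373 had the same direction as in ATPS EVs, and 50.3% and 49.2% were called. The difference of line differences between methods was tested directly. For miRNA it was called for 0 of 92 entries between ATPS and ultracentrifuged EVs (0%, limma), where 4 had an unadjusted p under 0.05, edgeR called 1 and DESeq2 0. Between ATPS and exoRNeasy EVs it was called for mir-221 alone (1.09%), while 11 entries had an unadjusted p under 0.05, edgeR called 0 and DESeq2 2. mir-221 stood at 1591 and 1301 TPM against 6129 and 4120 TPM with ATPS and at 633 and 797 TPM against 32337 and 16145 TPM with exoRNeasy (difference of log2 differences 2.97, adjusted p = 0.0243, limma). That call was lost without the first exoRNeasy library of MDA-MB-231 (adjusted p = 0.119), either PC3 ATPS library or the second MDA-MB-231 ATPS library, and with edgeR (adjusted p = 0.161).

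Among snoRNAs 29 entries had an unadjusted p under 0.05 against ultracentrifuged EVs and 19 against exoRNeasy EVs. In the same order edgeR called 1 and 1, and DESeq2 7 and 1. After adjustment in limma SNORA66 alone passed, against both methods (0.442% of entries each). Its level was lower in PC3 than in MDA-MB-231 with ATPS but not with the others. Ultracentrifuged EVs held 3874 and 3662 TPM in PC3 and 2705 and 4533 TPM in MDA-MB-231, and exoRNeasy EVs held 3818 and 4494 TPM and 4206 and 4217 TPM. The line difference with ATPS was lower by a log2 of -2.71 than with ultracentrifugation (adjusted p = 0.00534, limma) and of -2.59 than with exoRNeasy (adjusted p = 0.00964, limma). The first call was lost without the first PC3 ultracentrifuged library (adjusted p = 0.0519), and the second without either PC3 ATPS library or the second PC3 exoRNeasy library (adjusted p up to 0.141).

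**Figure D5:**
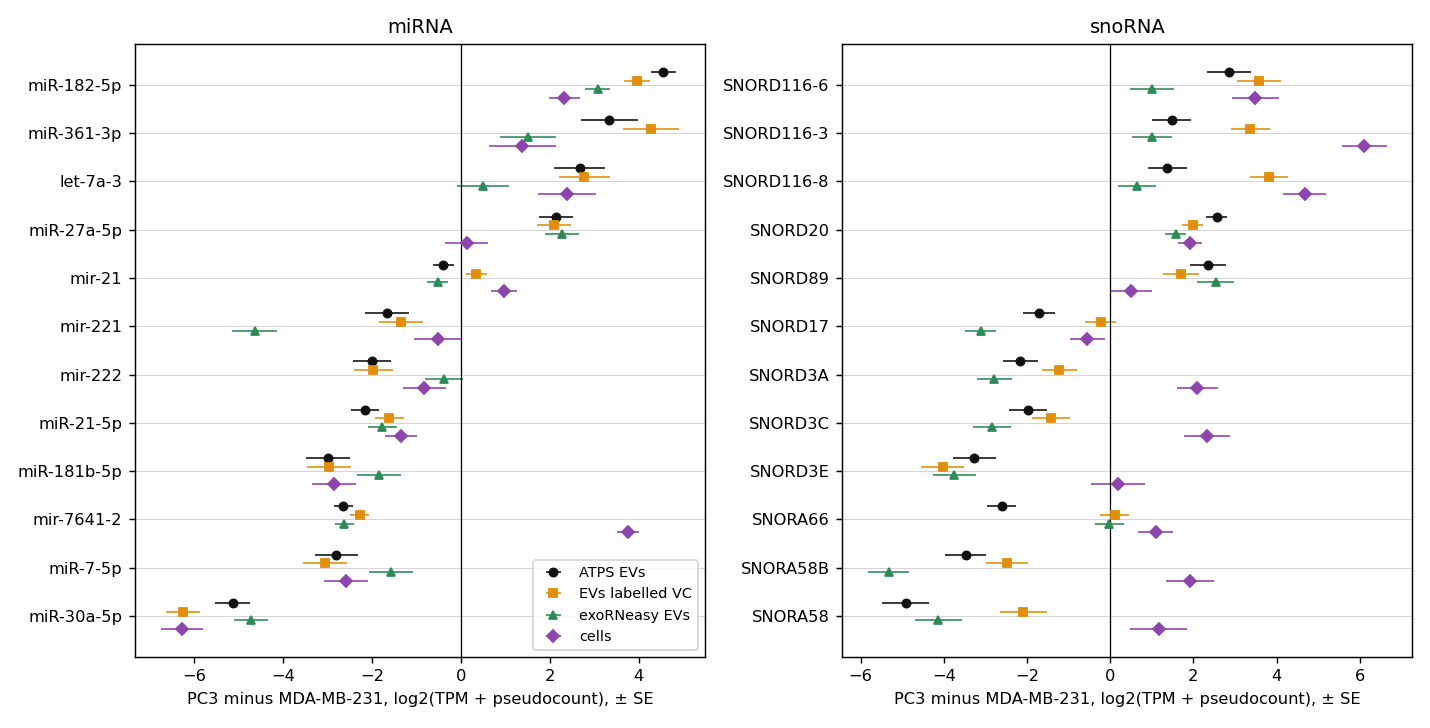
Difference between PC3 and MDA-MB-231 in log2(TPM + pseudocount) (horizontal axis) for named miRNA and snoRNA entries (vertical axis) in ATPS EVs, EVs labelled VC, exoRNeasy EVs and cells, 1 point a material, with bars for the standard error; values for cells are from the fit without the second MDA-MB-231 cell library. miR-182-5p, miR-30a-5p and SNORD20 keep their direction in all 4 materials, while mir-7641-2, SNORA58 and SNORD3A are below 0 in EVs and above 0 in cells.

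Donor cells shared part of the line difference for miRNA. For snoRNA and circRNA the calls had the direction of cells about as often as all entries did. Of the 41 miRNA calls 36 had the same direction in cells and 15 were called there, with 1 called in the opposite direction. Of all 92 entries 67 had the same direction and 21.7% were called in cells. miR-30a-5p had a log2 difference of -6.26 in cells beside -5.13 in ATPS EVs. miR-182-5p had 2.33 in cells beside 4.55 in ATPS EVs, and this gap of 2.22 passed the test of the difference. The line difference in ATPS EVs differed from that in cells for 5 miRNA entries, 5.43% of those tested. The widest gap was that of mir-7641-2, at 42734 and 47358 TPM in PC3 cells and 3110 TPM in the first MDA-MB-231 cell library, so that it was higher in PC3 in cells and lower in PC3 in ATPS EVs. For snoRNA, 24 of the 41 calls had the same direction in cells, beside 141 of all 226 entries. Of the 41, 9 were called in the same direction and 3 in the opposite one, while 22.1% of all entries were called in cells. The line difference differed from that in cells for 42 entries (18.6%), 4 of them higher and 38 lower in ATPS EVs. All 6 tested U3 copies were among these. They took 0.415% and 0.341% of snoRNA reads in PC3 cells and 0.107% in the first MDA-MB-231 cell library, and their median log2 difference was 1.38 in cells beside -2.21 in ATPS EVs. Of the 20 tested SNORD116 entries 17 differed from cells. SNORD115 and SNORD116 entries together took 2.56% and 2.39% of snoRNA reads in PC3 cells and 0.0062% in the first MDA-MB-231 cell library, whereas the MDA-MB-231 ATPS libraries held 0.501% and 0.931%. SNORD116-3 stood at 2041 and 1883 TPM in PC3 cells and 4.6 TPM in the first MDA-MB-231 cell library, against 443 and 690 TPM in MDA-MB-231 ATPS EVs. For circRNA, 99 of the 166 calls had the same direction in cells, beside 259 of all 463 entries, and of the 166 calls 22 were called in the same direction and 29 in the opposite one, while 27.4% of all entries were called in cells. The MDA-MB-231 side of each comparison with cells rests on 1 cell library.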

How the data were processed

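Small RNA was sequenced from EVs and donor cells of PC3 and MDA-MB-231, and 12 EV libraries of the 16 entered the main model. Per the methods, the authors applied a Q20 cut in a 4-base window, retained 18 to 35 base reads, mapped them to hg38 with STAR (both named in the submitters' processing notes as well) and annotated with COMPSRA. No source used here gives their versions. The deposited values carry the name TPM but behave as CPM within an RNA class, with no length term, and 100% were whole reads within 0.1 read. The test planned for TPM was therefore kept.

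Log2(TPM + pseudocount) was modelled with limma 3.58.1 (R 4.3.3, trend and robust), with a mean for each of 6 EV groups. Pseudocounts were 217 TPM for miRNA, 24.1 TPM for snoRNA and 1 TPM for circRNA, which understates differences of low entries. Entries with a mean of at least 2 pseudocounts over the 4 ATPS libraries were tested, and p-values were adjusted within a class by Benjamini-Hochberg (threshold 0.05). Cells were compared in a fit without the second MDA-MB-231 cell library. edgeR 4.0.16 and DESeq2 1.42.0 were run on recovered reads as alternatives. The main step was also run on simulated counts in which only the PC3 ATPS group was changed, at a preset spread. That run checked the direction of called changes and the correlation of set and fitted changes. It put no limit on false calls. The main model has no replicate block, since replicate numbers are not stated to mark a batch.

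Named entries were the 10 largest called, non-overlapping differences each way with a mean of at least 10 pseudocounts (5 for circRNA), the 5 most abundant entries of each line (8 for circRNA), members of the lists and entries that differed between methods. Members and lists were chosen with earlier results of these data known. Coordinates and snoRNA sequences are from GENCODE v44 (hg38), and mature miRNAs from RefSeq (GRCh38.p14), which matched 50 of the 92 tested miRNA entries. Precision is set by the reads per class.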

Additional observations from a re-analysis of the deposited data

Results flagged for a closer look

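Each result here was singled out because the line difference in ATPS EVs differed from that in another material by a test of the difference itself (limma, adjusted over all entries tested). Against cells, without the second MDA-MB-231 cell library, the log2 difference between lines was higher by 2.22 for miR-182-5p. It was lower by a log2 of -6.40 for mir-7641-2 and of -1.35 for mir-21. Among H/ACA snoRNAs the gap to cells was -6.08 for SNORA58, -5.40 for SNORA58B, -3.70 for SNORA66 and -3.60 for SNORA32. Among U3 copies it was -3.46 for SNORD3E, -3.64 for SNORD3B-2, -3.66 for SNORD3B-1, -4.26 for SNORD3A and -4.30 for SNORD3C, and it was -3.61 for the entry named U3. For the SNORD116 array the gap was -4.63 for SNORD116-3 and SNORD116-9, which have identical values, -4.64 for SNORD116-5 and SNORD116-7, and -3.30 for SNORD116-8. Each of these comparisons rests on 1 MDA-MB-231 cell library.

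Between EV methods, the line difference of mir-221 was higher by 2.97 with ATPS than with exoRNeasy. That of SNORA66 was -2.71 against ultracentrifuged EVs and -2.59 against exoRNeasy EVs.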

How the results depend on the processing

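Over the 180 named entries and every alternative, 3641 values kept their side of the threshold, 380 kept direction but were no longer called, and 99 became called. The 3641 may include changes of direction of entries called in neither setting. A reversal was counted only where the entry was called in the main or the alternative setting, and there was 1. In it miR-425-5p had a log2 difference of 0.22, and of -0.75 with mature names only (adjusted p = 0.0433, limma). The cause was not tested. Depth limits the miRNA values most, since 1 read is 217 TPM.

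For miRNA, the 12 entries higher in PC3 became 5 with a pseudocount of 1 TPM, 7 with a filter of 10 pseudocounts, 4 with mature names only and 6 to 13 with each library left out in turn. The 29 lower ones became 17 with that filter, 19 without the most abundant entry of each line and 18 to 34 with each library left out. For snoRNA, the 15 higher entries became 7 with a pseudocount of 1 TPM, 23 with the 4 ATPS libraries alone, 25 with centring on the median entry, 26 with the replicate block and 4 to 24 with each library left out. The 26 lower ones became 17 with a filter of 10 pseudocounts and 16 to 30. For circRNA, the 74 higher entries became 6 without a filter, 33 with the stricter filter, 40 with all 16 libraries, 119 with edgeR, 122 with DESeq2, 193 without the 8 dominant entries, 20 with 1 entry per group and 66 to 83 with each library left out. The 92 lower ones became 1 without a filter, 56 with the stricter one, 24 with all 16 libraries, 34 without the 8 entries, 24 with 1 entry per group and 24 to 121.

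Calls of a line difference that was not the same between methods were few in the main fit, and their number moved with the setting. Between ATPS and ultracentrifuged EVs the 0 miRNA calls became 1 with edgeR, 1 with mature names only and 0 to 1 with each library left out. Between ATPS and exoRNeasy EVs the single miRNA call became 3 with a pseudocount 5 times larger, 2 without a filter, 0 with all 16 libraries, 5 with centring, 0 with edgeR, 2 with DESeq2, 2 with the replicate block, 0 with mature names only and 0 to 6. The single snoRNA call against ultracentrifuged EVs became 8 with centring, 7 with DESeq2, 10 with the replicate block and 0 to 14. Against exoRNeasy EVs it became 2 with the larger pseudocount, 2 with all 16 libraries, 7 with centring, 5 with the replicate block and 0 to 4. The difference in detected species was -53 for miRNA, -26.1 after thinning and -24 with at least 3 reads. It was -31 for snoRNA, -6.93 after thinning and -38.5 with at least 3 reads, and -22757.5 for circRNA, -2916 after thinning and -11239 with at least 3 reads.

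Of the 41 miRNA calls 33 remained with edgeR and 33 with DESeq2, and of the 41 snoRNA calls 32 and 33. With the replicate block 38 miRNA, 41 snoRNA and 166 circRNA calls remained. Same-numbered PC3 and MDA-MB-231 ATPS libraries deviated together with r = 0.028 for miRNA, 0.196 for snoRNA and 0.417 for circRNA. Over all pairs of the 6 EV groups r ran from -0.223 to 0.450 for miRNA and from -0.314 to 0.646 for snoRNA. For circRNA it ran from -0.446 to 0.792. The labels give no shared batch behind a number.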
